A study of Mus musculus with 9 samples.

Results

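The immediate early factors Fos, Fosb, Fosl1, Fosl2, Jun, Junb, Jund, Egr1, Egr2 and Egr3 were followed by gene symbol in 20 RNA libraries of sorted mouse thymic epithelial cells. All 10 genes were found among the 38720 genes of the counts table, and all 10 passed the filter on low counts in each fit. FOS and JUN family proteins pair through leucine zippers to form the transcription factor AP-1, and EGR proteins are zinc finger factors that bind GC-rich sites. Most of their genes are transcribed within minutes of growth factor, stress or calcium signals, through MAP kinases, SRF with its ELK partners and CREB, without new protein synthesis. FOXN1 is the forkhead factor that drives differentiation of thymic epithelium, and AP-1 and EGR factors act there, as elsewhere, downstream of receptor signalling. The same genes also rise in many tissues while cells are dissociated and sorted, which is background for reading sorted material.

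The transgenic set came from nude mice, which lack functional FOXN1, carrying a BAC transgene that encodes FLAG-tagged FOXN1. Heterozygous carriers gave 3 libraries of cortical cells (cTEC) and 2 of medullary cells (mTEC), and homozygous carriers gave 3 and 2. The deletion set held cTEC only, from mice homozygous for both the beta5t-rtTA locus and floxed Foxn1, at 72 h after doxycycline. The mice of the 5 deleted libraries were also heterozygous for the tetO-Cre transgene, which removes exons 7 and 8, and those of the 5 control libraries lacked it, so that both groups share rtTA and doxycycline. Cells were sorted as CD45-negative, EpCAM-positive and MHC class II-positive, with Ly51 for cortical and UEA-1 for medullary cells. The labels give no age, and they do not say whether libraries of a group came from separate animals, so p-values measure the spread between these libraries.

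Library totals ran from 20719630 to 22372633 counts, and values below are CPM, counts scaled to a common library total. Foxn1 was at 1299 to 1484 CPM in homozygous and 1144 to 1209 in heterozygous cTEC, 307 to 329 in homozygous and 488 to 502 in heterozygous mTEC, 351 to 579 in control and 361 to 538 in deleted cTEC. Reads from exons left in place enter this value, so it does not check the deletion. In mTEC the Foxn1 RNA ran against the transgene labels, higher in both heterozygous than in both homozygous libraries, so groups are named here by genotype. Epcam was present in every group (means of 349 to 859 CPM), and Aire, the medullary regulator, averaged 1009 and 1109 CPM in the mTEC groups against at most 7.20 in any cTEC group. Psmb11, which encodes the cortical subunit beta5t, averaged 997 CPM in homozygous and 105 in heterozygous cTEC but 0.920 in control and 0.319 in deleted cTEC, where the rtTA locus is named after that subunit. Enpep, which encodes Ly51, averaged 131 CPM in control and in deleted cTEC alike.

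Promoter sequence is shown for 3 members that were higher in heterozygous cTEC, so that the elements discussed for these genes can be read in place. RefSeq windows on GRCm38.p6 (250 bases before to 50 after each start) matched 7 of the 10 members in 11 windows, 5 of them for Egr2. They were searched on both strands for the CRE (TGACGTCA, bound by CREB), the AP-1 site (TGANTCA), the SRF site known as the CArG box, and GACGC, the core read by FOXN1. The upstream 250 bases are written 5′ to 3′ on the gene's strand, with GACGC or its reverse complement in capitals.
Fos (chr12:85473640-85473889, plus strand): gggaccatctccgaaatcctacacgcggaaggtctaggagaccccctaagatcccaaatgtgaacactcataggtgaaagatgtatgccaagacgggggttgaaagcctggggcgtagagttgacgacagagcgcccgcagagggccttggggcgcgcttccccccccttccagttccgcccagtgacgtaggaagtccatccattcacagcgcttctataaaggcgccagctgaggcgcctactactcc
Jun (chr4:95052223-95052472, minus strand): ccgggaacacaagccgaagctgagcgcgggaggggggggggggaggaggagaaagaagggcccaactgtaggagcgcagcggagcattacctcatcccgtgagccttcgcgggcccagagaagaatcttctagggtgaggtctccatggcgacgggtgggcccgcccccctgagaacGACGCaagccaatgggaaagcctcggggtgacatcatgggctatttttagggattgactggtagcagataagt
Junb (chr8:84978749-84978998, minus strand): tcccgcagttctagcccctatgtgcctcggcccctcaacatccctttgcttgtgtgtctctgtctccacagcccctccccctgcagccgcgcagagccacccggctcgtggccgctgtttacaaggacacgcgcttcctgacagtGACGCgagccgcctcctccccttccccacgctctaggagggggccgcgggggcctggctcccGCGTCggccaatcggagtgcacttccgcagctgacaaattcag

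Fos had no exact match to any of the 4 motifs, Jun held 1 GACGC core and Junb held 2, on opposite strands. Fosb and Fosl2 held 1 core each, Jund none, and Egr2 1 core in its first window. By comparison, 27.2% of all 32817 mouse windows of this length held a GACGC core. No exact CRE (1.79% of all windows) or AP-1 site (7.81%) lay in the 11 windows. The CArG box (1.63% of all windows) was found in 4 of the 5 Egr2 windows, at 2 places, shown with the box in capitals. The windows overlap, so the second box was counted in 3 of them.
Egr2, window chr10:67537316-67537615, plus strand: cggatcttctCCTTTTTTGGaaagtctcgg
Egr2, window chr10:67537619-67537918, plus strand: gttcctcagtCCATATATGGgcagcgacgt

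These matches describe letters only, and binding was not examined. Exact matching also leaves out variants of each element and everything outside the windows.

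The dose comparison in cTEC asks what differs in the cortex when the transgene is heterozygous rather than homozygous. Of the 10 factors 9 were higher in heterozygous cTEC and 0 lower, and only Egr3 did not pass. Across all 19222 genes tested by edgeR's quasi-likelihood test with Benjamini-Hochberg adjustment, 20.9% were called higher and 21.9% lower. The median log2 fold change was 1.43 over the 10 factors and 0 over all genes tested. The differences ran from 0.34 for Fosl2 to 3.41 for Egr2 on the log2 scale. For the 9 called genes every heterozygous library lay above every homozygous one. How many of all genes tested separate in this way was not counted, so this is a description only.

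Among the FOS family, Fos, the founding partner of JUN in AP-1, was at 1339.6, 798 and 571 CPM in the 3 heterozygous libraries and at 185, 81.2 and 73.4 in the 3 homozygous ones. Its fitted difference was 2.87 ± 0.36 log2 (SE, edgeR adjusted p = 2.18e-05), a 7.30-fold higher level. Fosb, a close relative with its own immediate early kinetics, was at 685, 519 and 297 against 83.0, 25.1 and 30.2 CPM (3.31 ± 0.39, edgeR adjusted p = 1.36e-05). In both genes the lowest heterozygous library exceeded the highest homozygous one by a wide gap.
Fosl1, which encodes FRA1 and is usually induced later, was low, at 2.56, 1.81 and 1.47 against 1.03, 0.635 and 1.19 CPM (0.90 ± 0.30, edgeR adjusted p = 0.0270). Fosl2, which encodes FRA2, was at 11.6, 11.2 and 9.64 against 8.23, 6.71 and 8.42 CPM (0.34 ± 0.11, edgeR adjusted p = 0.0212). Both calls rest on single libraries. Fosl1 was not called without heterozygous library 1 (0.64, adjusted p = 0.127) or without homozygous library 1 (0.96, 0.0550) or 2 (0.68, 0.115). Fosl2 was not called without heterozygous library 1 (0.28, adjusted p = 0.0861) or homozygous library 2 (0.25, 0.0999).

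Among the JUN family, Jun, which can pair with itself or with FOS, was at 1214, 785 and 696 CPM in heterozygous and 305, 242 and 176 in homozygous cTEC (1.77 ± 0.21, edgeR adjusted p = 1.26e-05). Junb, a weaker activator that can restrain JUN, was at 799, 494 and 424 against 324, 270.0 and 181 CPM (1.02 ± 0.23, edgeR adjusted p = 0.00248). Jund, the member with the steadiest basal expression, was at 139, 121 and 98.5 against 79.3, 59.2 and 54.8 CPM (0.76 ± 0.14, edgeR adjusted p = 6.98e-04). The JUN genes were thus higher by 1.69-fold to 3.41-fold.

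Among the EGR family, Egr1, the best known SRF target of the group, was at 1554, 1210.2 and 1044 CPM in heterozygous and 342, 342 and 193 in homozygous cTEC (1.99 ± 0.20, edgeR adjusted p = 2.68e-06). Egr2, known from myelination and lymphocyte tolerance, was at 41.2, 17.1 and 10.7 against 3.09, 1.86 and 0.999 CPM, a 10.6-fold difference (3.41 ± 0.48, edgeR adjusted p = 6.98e-05). Egr3, a relative of Egr2, had 1 to 12 counts per library in these groups (0.548, 0.185 and 0.0459 against 0.0467, 0.136 and 0.143 CPM). The Egr3 ranges overlapped and a difference was not detectable at this depth (1.09 ± 0.81, edgeR adjusted p = 0.313).

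**Figure D1:**
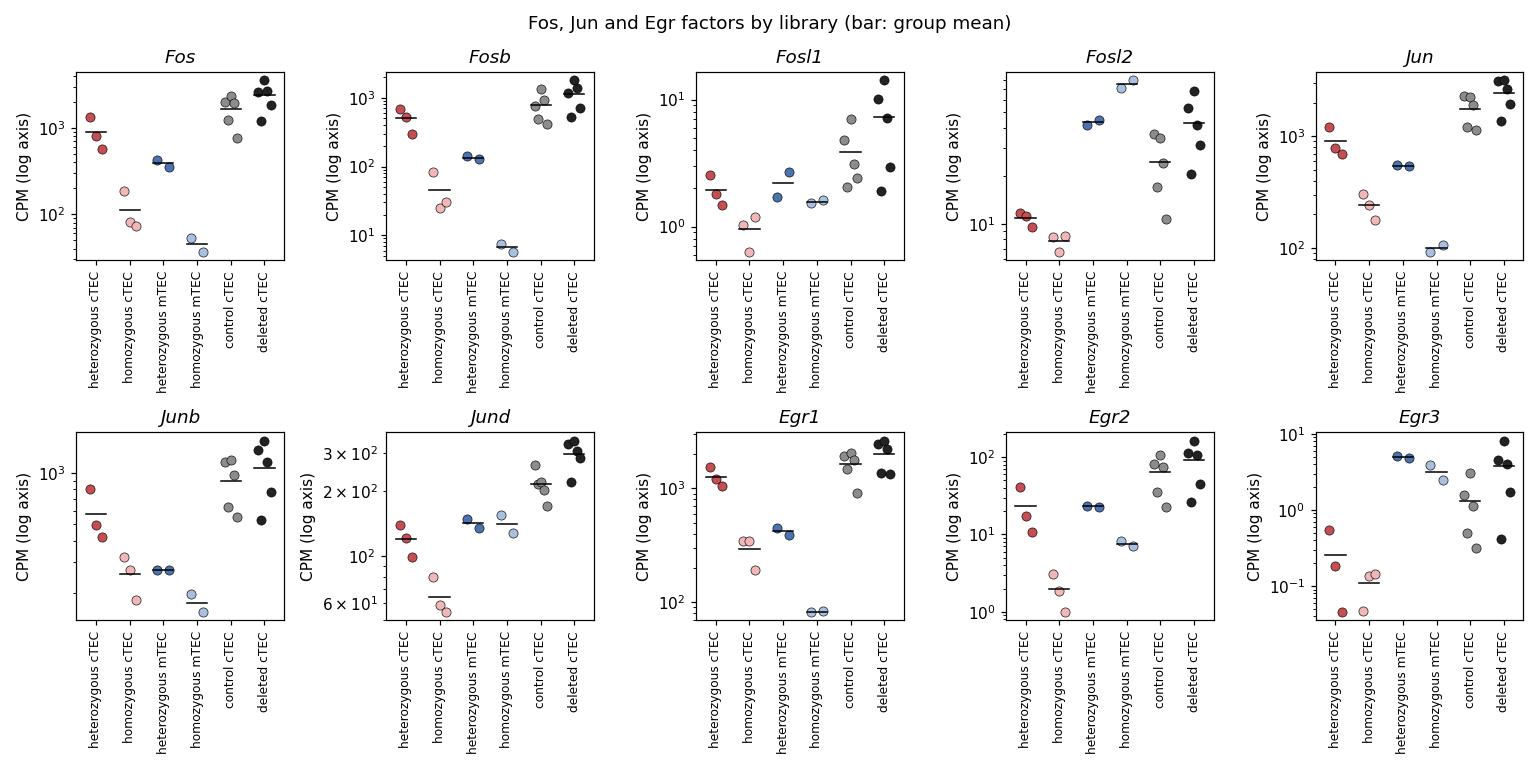
Each panel plots 1 factor in CPM on a log axis, with a point per library in library order and a bar at the mean of each of the 6 groups. Heterozygous cTEC lie above homozygous cTEC in every panel except Egr3, Fosl2 is highest in homozygous mTEC, and control and deleted cTEC overlap in all 10 panels.

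Markers of other cells moved between these groups too. Of 9 fibroblast markers 5 were higher and 1 lower in heterozygous cTEC, with a sum of 356 to 377 CPM against 116 to 127 in homozygous cTEC. Most of that sum was Dcn (means of 153 against 30.2 CPM) and Fbn1 (135 against 73.5 CPM). Col3a1 averaged 5.20 against 2.42 CPM, and Col1a1 0.521 against 0.602 CPM. All 12 thymocyte markers were lower, with a sum of 12.2 to 19.1 against 68.9 to 110.4 CPM. Of 9 macrophage and dendritic markers 1 was higher and 2 lower (6.93 to 8.57 against 3.95 to 7.25 CPM in sum). Of 4 cTEC markers all 4 were lower, at 910.2 to 938 against 8498 to 9461 CPM in sum. In sorted bulk cells a change in cell makeup and a change of RNA per cell cannot be told apart, and the part of these markers in the result was not tested.

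The dose comparison in mTEC asks the same question of medullary cells, with 2 libraries per group. Of the 10 factors 5 were higher in heterozygous mTEC (Fos, Fosb, Jun, Egr1 and Egr2), 1 was lower (Fosl2) and 4 did not pass. Of all genes tested 28.9% were called higher and 30.8% lower. The members' median log2 fold change was 1.14, against 0.01 for all genes tested. With other scalings the median of all genes moved to -0.12 (relative log expression factors), where 3911 genes were higher and 7082 lower in place of 5550 and 5922, and the members called numbered 5 higher and 1 lower as before.

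Fos was at 427 and 348 CPM in heterozygous and 52.6 and 36.9 in homozygous mTEC (3.14 ± 0.45, edgeR adjusted p = 7.21e-05). Fosb was at 142 and 128 against 7.59 and 5.79 CPM, a 20.5-fold difference (4.36 ± 0.56, edgeR adjusted p = 3.09e-05). Jun was at 552 and 539 against 92.8 and 106 CPM (2.48 ± 0.26, edgeR adjusted p = 6.40e-06). These 3 AP-1 genes had clear gaps between the groups.
Egr1 was at 452 and 388 against 82.1 and 83.1 CPM (2.37 ± 0.25, edgeR adjusted p = 5.76e-06). Egr2 was at 23.5 and 22.7 against 8.24 and 6.99 CPM (1.62 ± 0.49, edgeR adjusted p = 0.0117). The Egr2 call was lost without homozygous library 1 (1.75, adjusted p = 0.0847) or 2 (1.51, adjusted p = 0.111), when 1 library is assumed to vary like the other groups. Egr1 kept its call in each such fit.

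Fosl2 went the other way, at 41.8 and 45.0 CPM in heterozygous and 71.7 and 79.4 in homozygous mTEC (-0.78 ± 0.10, edgeR adjusted p = 4.05e-05). Jund did not differ detectably, at 148 and 135 against 154 and 128 CPM (0.03 ± 0.17, edgeR adjusted p = 0.887), and its sign changed with the scaling. Junb was at 272 and 269 against 195 and 154 CPM and missed the threshold (0.65 ± 0.28, edgeR adjusted p = 0.0580).
Fosl1 (1.70 and 2.69 against 1.53 and 1.62 CPM; 0.50 ± 0.33, adjusted p = 0.213) and Egr3 (5.09 and 4.77 against 3.89 and 2.50 CPM; 0.65 ± 0.31, adjusted p = 0.0932) missed it too. For Fosl1, Junb and Egr3 both heterozygous libraries lay above both homozygous ones. With 2 libraries per group this carries little weight, and how many of all genes separate in this way was not counted. In a fit of the mTEC libraries alone Junb (0.65, edgeR adjusted p = 2.95e-04) and Egr3 (0.64, 0.0260) were called, among 11423 genes called in either direction.

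Macrophage and dendritic markers were lower in heterozygous mTEC for 8 of 9 genes (110.4 to 114 against 581 to 681 CPM in sum), and all 12 thymocyte markers were lower (49.7 to 49.8 against 94.9 to 116 CPM). Of 9 fibroblast markers 2 were higher and 3 lower. Of 12 heat shock genes, a list often raised with immediate early genes when tissue is dissociated, 10 were higher and 0 lower in heterozygous mTEC, against 3 higher and 5 lower in heterozygous cTEC. Hspa1a, the inducible HSP70, averaged 119 ± 15.9 CPM in heterozygous and 13.9 ± 0.885 in homozygous mTEC (SD, n = 2 each), and 21.0 ± 14.3 against 13.0 ± 2.76 CPM in cTEC (n = 3 each). The part of these lists in the members' differences was not tested.

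**Figure D2:**
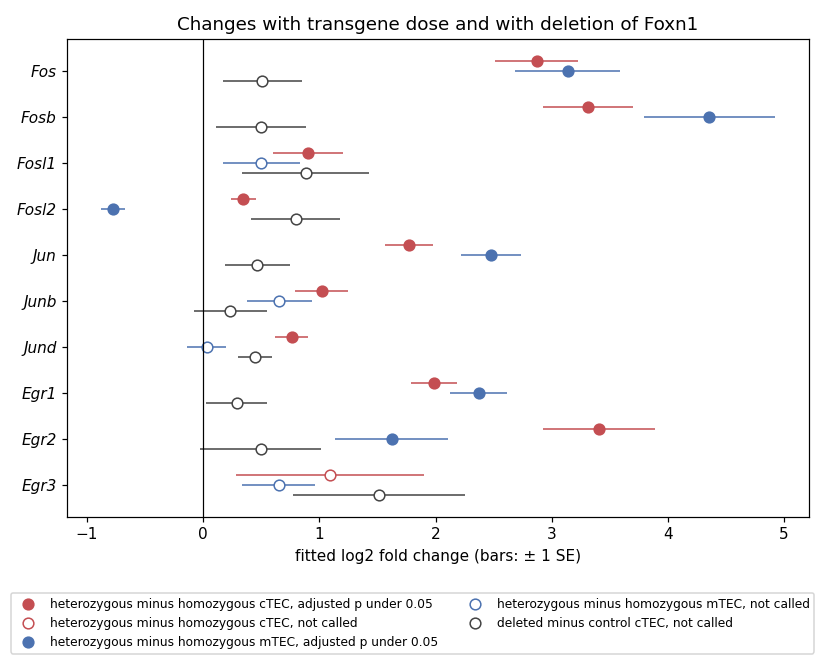
The fitted log2 fold change of each factor is plotted with bars of 1 SE for the dose comparison in cTEC, the dose comparison in mTEC and the deletion, with filled points for an adjusted p under 0.05. Dose differences are filled for 9 factors in cTEC and 6 in mTEC, Fosl2 in mTEC lies below 0, and all 10 deletion points are open and above 0.

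The difference between the dose effects was tested as an interaction, mTEC minus cTEC. It was called lower for 2 of the 10 factors and higher for 0, while 25.2% of all genes tested were called higher and 17.2% lower. That balance over all genes turned with the scaling, from 4848 higher and 3314 lower to 3403 and 3925 with relative log expression, 3310 and 4019 with upper quartile and 3101 and 4123 without factors. Fosl2 was higher in heterozygous cTEC and lower in heterozygous mTEC, an interaction of -1.12 ± 0.15 log2 (edgeR adjusted p = 6.51e-05). Jund was called higher in cTEC and not in mTEC, an interaction of -0.73 ± 0.22 (edgeR adjusted p = 0.0171), which was not called without heterozygous mTEC library 2 (-0.67, adjusted p = 0.0621) or homozygous mTEC library 1 (-0.58, adjusted p = 0.132). For Fos (0.27 ± 0.54), Fosb (1.04 ± 0.67), Jun (0.71 ± 0.32) and Egr1 (0.38 ± 0.30) the test did not pass, with adjusted p from 0.0954 to 0.738. Egr2 (-1.78 ± 0.71, adjusted p = 0.0586) lay near the threshold and passed under several alternatives.

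Comparison of the subsets at 1 dose shows where each factor is expressed more. In homozygous mice 4 factors were higher in mTEC and 5 lower, beside 43.2% and 39.4% of all genes tested, so the shares called are near the background. In heterozygous mice 2 were higher and 5 lower, beside 40.4% and 31.6%. With upper quartile factors 9610 genes were higher and 5700 lower in homozygous mice in place of 8303 and 7577. Fosl2 and Egr3 were higher in mTEC at both doses. Fosl2 differed by 3.04 ± 0.10 log2 in homozygous (edgeR adjusted p = 1.04e-11) and 1.92 ± 0.10 in heterozygous mice (edgeR adjusted p = 1.60e-09). Egr3 differed by 4.57 ± 0.53 and 4.12 ± 0.41 (adjusted p = 2.36e-06 and 1.00e-06), from cTEC libraries of 12 counts or fewer.

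Fos, Fosb, Jun, Junb and Egr1 were lower in mTEC at both doses. Egr1 was lower by -2.07 ± 0.23 log2 in homozygous and -1.68 ± 0.22 in heterozygous mice (edgeR adjusted p = 1.94e-06 and 1.56e-05). Fosb was lower by -3.02 ± 0.54 and -1.98 ± 0.42, Fos by -1.58 ± 0.41 and -1.31 ± 0.38, Jun by -1.52 ± 0.24 and -0.81 ± 0.23, and Junb by -0.81 ± 0.26 and -1.17 ± 0.26. The Fos call was lost without library 2 of homozygous (-1.35, adjusted p = 0.0710) or of heterozygous mTEC (-1.09, adjusted p = 0.0746), and the heterozygous Jun call without the latter (-0.71, adjusted p = 0.0552). Junb ranges overlapped between the homozygous subsets, and that call was lost without homozygous cTEC library 1 (-0.62, adjusted p = 0.0508) or mTEC library 2 (-0.65, adjusted p = 0.144).

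Jund and Egr2 were higher in mTEC of homozygous mice, by 0.89 ± 0.16 and 1.69 ± 0.57 log2 (edgeR adjusted p = 1.28e-04 and 0.0142), and did not pass in heterozygous mice (0.16 ± 0.15 and -0.09 ± 0.41). The homozygous Egr2 call was lost without cTEC library 3 (1.38, adjusted p = 0.0579) or mTEC library 1 (1.56, adjusted p = 0.112) or 2 (1.80, adjusted p = 0.0647). Without heterozygous cTEC library 1, Egr2 was called higher in heterozygous mTEC (0.66, adjusted p = 0.0356). Fosl1 passed at neither dose (0.49 ± 0.34 and 0.08 ± 0.29). Macrophage and dendritic markers were higher in the mTEC libraries as well (8 of 9 in heterozygous and 9 of 9 in homozygous mice), and their part in these differences was not tested.

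**Figure D3:**
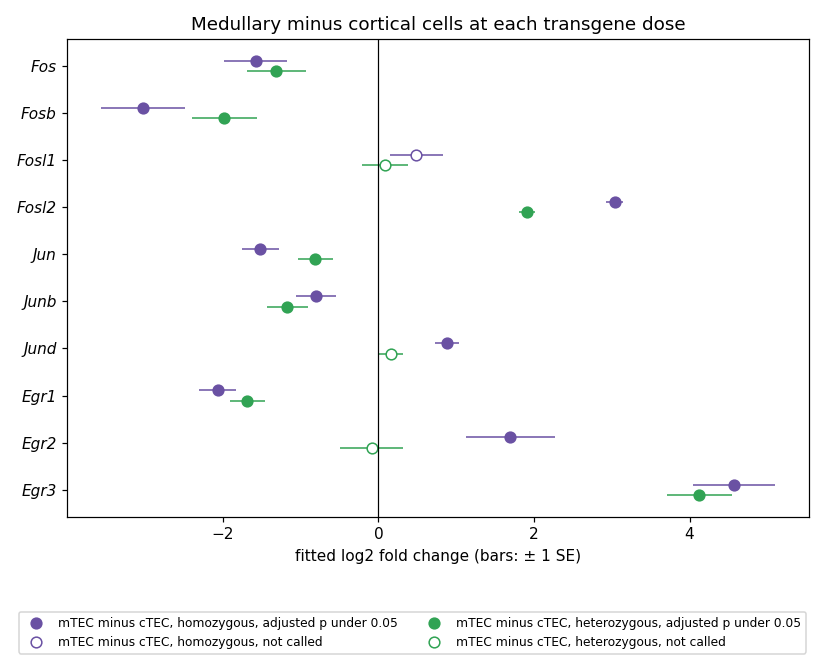
The fitted log2 difference between mTEC and cTEC is plotted for each factor with bars of 1 SE, separately for homozygous and heterozygous mice, with filled points for an adjusted p under 0.05. Fosl2 and Egr3 lie to the right at both doses, and Fos, Fosb, Jun, Junb and Egr1 to the left.

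The deletion comparison asks which cTEC transcripts differ at 72 h after doxycycline between floxed Foxn1 mice with and without the tetO-Cre transgene. None of the 10 factors was called in the unpaired edgeR fit, in which 0.282% of 15224 genes tested were called higher and 1.69% lower. All 10 fitted differences were above 0, from 0.23 for Junb to 1.51 for Egr3, with a median of 0.50 against 0.01 for all genes tested. The unadjusted p was under 0.05 for 1 of the 10 (Jund, 0.0107) and for 2944 genes. DESeq2 and limma-voom called 0 of the 10 as well. The groups overlapped for every member.

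Fos was at 2006, 1229, 2330.2, 1916 and 772 CPM in control and 2618, 1208, 3535, 2687 and 1814 in deleted libraries 1 to 5 (0.51 ± 0.34, edgeR adjusted p = 0.430). Fosb was at 752, 483, 1325, 934 and 421 against 1176, 529, 1785, 1381 and 709 CPM (0.50 ± 0.38, adjusted p = 0.510 by edgeR). The libraries within a group differed by up to 3.02-fold for Fos in control and 3.37-fold for Fosb in deleted cTEC, more than the groups did.
Fosl2 was at 36.5, 17.0, 34.5, 24.2 and 10.7 against 53.7, 20.6, 67.9, 41.9 and 31.4 CPM (0.79 ± 0.38, edgeR adjusted p = 0.284). Fosl1 was at 4.80, 2.05, 7.04, 3.13 and 2.41 against 10.1, 1.92, 14.2, 7.12 and 2.94 CPM (0.88 ± 0.54, edgeR adjusted p = 0.397). For all 4 FOS family genes library 3 was highest in the deleted group and library 2 lowest.

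Jun was at 2304, 1204, 2234, 1894 and 1138 CPM in control and 3099, 1380.4, 3163, 2672 and 1939 in deleted cTEC (0.46 ± 0.28, edgeR adjusted p = 0.389). Junb was at 1155, 634, 1182, 975 and 554 against 1349, 527, 1536, 1157 and 767 CPM (0.23 ± 0.31, edgeR adjusted p = 0.726). Jund was at 264, 216, 222, 202 and 171 against 331, 220.0, 344, 307 and 284 CPM (0.45 ± 0.15, edgeR adjusted p = 0.137). Jund came nearest to separating, since 4 of 5 deleted libraries lay above all controls.
Egr1 was at 1928, 1489.6, 2029, 1783 and 905 against 2465, 1363, 2622, 2219.5 and 1347 CPM (0.29 ± 0.26, edgeR adjusted p = 0.577). Egr2 was at 81.5, 34.9, 107, 73.5 and 22.7 against 113, 26.6, 163, 107 and 44.5 CPM (0.50 ± 0.52, edgeR adjusted p = 0.637). Egr3 was at 1.55, 0.501, 3.02, 1.13 and 0.313 against 4.52, 0.411, 8.14, 4.04 and 1.74 CPM (1.51 ± 0.74, edgeR adjusted p = 0.292). Egr3 spanned 7 to 170 counts over these 10 libraries, so its precision is low.

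Library numbers are shared by the column names of control and deleted cTEC, and the labels do not say whether a number marks animals handled together. With the number as a replicate block, 5 of the 10 factors were called higher and 0 lower. Of all genes tested, the block called 2.61% higher and 5.4% lower. The 5 factors were Fosb (0.48 ± 0.09, edgeR adjusted p = 0.0279), Fosl2 (0.80 ± 0.15, 0.0297), Jun (0.46 ± 0.08, 0.0263), Jund (0.44 ± 0.10, 0.0416) and Egr3 (1.47 ± 0.30, 0.0341). The deleted library exceeded the control library of the same number in 5 of 5 numbers for Fosb, Fosl2, Jun and Jund, and in 4 of 5 for the other 6 factors, where number 2 was the exception. Leaving out numbers 1, 2, 3, 4 or 5 from the blocked fit, an alternative added after seeing the data, left 0, 9, 0, 0 and 4 factors called, and 14, 1332, 136, 383 and 871 of all genes against 1220 with every number. In these 5 fits the difference of Fosb ran from 0.44 to 0.57, Fosl2 from 0.65 to 0.93, Jun from 0.40 to 0.52, Jund from 0.39 to 0.54 and Egr3 from 1.34 to 1.70. Whether the deletion comparison calls these factors therefore depends on a pairing that the labels do not settle.

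Summed fibroblast markers were higher after deletion too, at 879 to 1566 CPM against 485.5 to 976 without it, although 0 of 9 passed. Dcn averaged 761 CPM in deleted and 418 in control cTEC. Within deleted cTEC the fibroblast sum and the members' sum did not run in the same order. There library 3 had the lowest fibroblast sum (879 CPM) and the highest members' sum (13237.5 CPM). Library 5 had the highest fibroblast sum (1566 CPM) with a members' sum of 6941 CPM. In control cTEC library 5 was lowest in both (485.5 and 3998 CPM). The fibroblast sum of the deleted library was above that of the control of the same number in 5 of 5 numbers. With the replicate block Col3a1 was called higher (0.83) and Thy1, which is also a thymocyte marker, lower (-1.48). Thymocyte markers summed to 62.2 to 427 CPM with Cre and 70.2 to 577 CPM without, with 0 of 11 tested past the threshold. With the block 4 of 11 were called lower, beside 5.4% of all genes tested: Cd3e (-0.94), Cd3d (-1.22), Cd8a (-0.80) and Thy1. Macrophage and dendritic markers summed to 7.85 to 54.2 against 9.44 to 41.4 CPM, with 0 of 8 tested past it. Hspa1a spanned 29.7 to 1215 CPM over the deleted and 24.3 to 827 CPM over the control libraries. Its deleted library exceeded the control of the same number in 5 of 5 numbers, as did those of Hspa1b and Hspb1. None of the 12 heat shock genes passed in the unpaired fit, and with the block Hspa1a (0.53), Hspa1b (0.60) and Hspb1 (0.90) were called higher. The comparison by number was made only for these 3 genes, the same 3 that the block called, so it adds no separate evidence. Over all 12 the unpaired median was 0.10, and 6 of the fitted values were above 0. With the block the median over all 12 was 0.07, and Hspd1 (-0.13) and Hspa8 (-0.11) were among those below 0. The part of these genes in the members' values was not tested.

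In some groups the libraries differed in all or most of the 10 factors together. In heterozygous cTEC library 1 was highest and library 3 lowest for 10 of 10 factors, and in deleted cTEC library 3 was highest for 10 and library 2 lowest for 9. In control cTEC library 3 was highest for 7 and library 5 lowest for 9. The remaining groups were less uniform. In homozygous cTEC library 1 was highest for 7, and library 3 was highest for 3 and lowest for 6. In heterozygous mTEC library 1 was highest for 8 and library 2 for 2, and in homozygous mTEC for 6 and 4. After subtraction of group means from log2(CPM + 1), the 45 pairs of factors had Pearson correlations of 0.63 to 0.98 over the 20 libraries, with a median of 0.85. These points share library and depth, and correlations between pairs of other genes were not computed, so the values are a description.

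**Figure D4:**
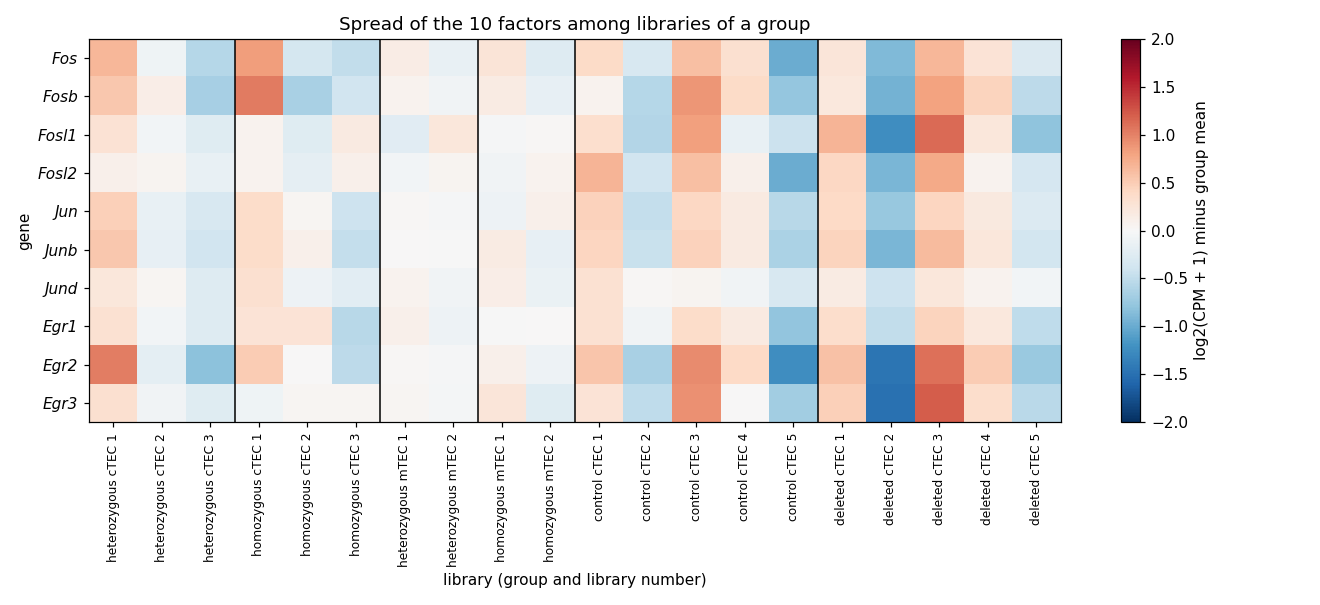
Rows are the 10 factors and columns the 20 libraries in their 6 groups, coloured by log2(CPM + 1) minus the group's mean. Columns tend to be of 1 colour from top to bottom, as in heterozygous cTEC library 1 (all 10 highest of their group) and deleted cTEC library 3 (all 10 highest).

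Summed over the 10 factors, the share of all counts was 0.0719% to 0.133% in homozygous and 0.315% to 0.579% in heterozygous cTEC, and 0.0605% to 0.0670% and 0.188% to 0.206% in the corresponding mTEC. In the deletion set it was 0.400% to 0.947% in control and 0.528% to 1.32% in deleted cTEC. The 2 sets come from different mice and were not tested against each other. Side by side, Jund was at 171 to 264 CPM in control and 98.5 to 139 in heterozygous cTEC, and Fosl1 at 2.05 to 7.04 and 1.47 to 2.56 CPM.

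Genes whose spread around the group means was most like that of Fos, among 10630 genes with a mean of at least 10 CPM, were Dusp1 (Pearson r = 0.94), Ier2 (0.91), Myd88 (0.90), Socs3 (0.90) and Klf4 (0.90) over 20 libraries. For Egr1 they were Pnrc1 (0.90), Myd88 (0.90), Ier3 (0.87), Dusp1 (0.87) and Sirt3 (0.86). Dusp1 encodes a MAP kinase phosphatase that is itself an immediate early gene. It averaged 74.5 ± 30.4 CPM in heterozygous and 9.21 ± 3.20 in homozygous cTEC (SD, n = 3 each), 85.5 ± 2.73 and 19.6 ± 0.849 in mTEC (n = 2 each), and 181 ± 68.5 in control and 331 ± 110.1 in deleted cTEC (n = 5 each).

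Other immediate early genes were read from a list of 32. In heterozygous cTEC 19 were higher and 2 lower (median 0.70), led by Ier5 (1.07 ± 0.10, edgeR adjusted p = 1.40e-06), Klf4, a zinc finger factor (3.15 ± 0.30), and Nr4a1, an orphan nuclear receptor (3.26 ± 0.34), with Maff (-1.56) and Ctgf (-0.98) lower. In heterozygous mTEC 12 were higher and 8 lower (median 0.13). Myc (0.72), Rhob (1.48) and Nr4a2 (1.20) were higher, and Ptgs2, the inducible cyclooxygenase (-2.97), Cebpb (-0.89) and Nr4a3 (-1.30) lower. In the same comparison 8 of 9 macrophage and dendritic markers were lower, and their part in these values was not tested. In the deletion 0 of 32 passed (median 0.32), and 30 of 32 fitted values were above 0. With the replicate block 9 were called higher.

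Partners of the factors were mixed. Of 14 AP-1 partner genes tested 5 were higher and 5 lower in heterozygous cTEC, and 5 and 5 in heterozygous mTEC. Atf3, a stress-induced partner of JUN, was higher in both (3.08 ± 0.58 and 1.97, edgeR adjusted p = 7.02e-04 and 0.0131). Atf4 was slightly higher in both (0.20 and 0.33). The large MAF factors Maf (-1.17) and Mafa (-1.64) and the small Mafg (-1.10) were lower in cTEC, whereas Mafa was higher in mTEC (1.12). Batf2 (-2.86) and Batf3 (-2.21), lymphoid and myeloid AP-1 partners, were lower in mTEC. The macrophage and dendritic markers above were lower there too, and their part in these values was not tested. In the deletion none of 12 tested passed, with Atf3 at 0.80 (adjusted p = 0.478). With the replicate block Atf3 was called higher (0.80, edgeR adjusted p = 0.0291) and Mafa lower (-0.64, 0.0301).

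Nab2, a corepressor that EGR factors induce, was higher in heterozygous cTEC (0.58 ± 0.08, edgeR adjusted p = 4.34e-05) and lower in heterozygous mTEC (-0.49 ± 0.10, edgeR adjusted p = 0.00122). Nab1 was slightly lower in cTEC (-0.23) and did not pass in mTEC (-0.08). Egr4, the remaining EGR gene, averaged 0.657 CPM in heterozygous and 0.0310 in homozygous cTEC, and 1.46 and 0.116 in mTEC, and was called higher in both (edgeR adjusted p = 0.0278 and 0.0119) from libraries of few counts.

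Upstream, the list of 26 genes that signal to SRF and AP-1 had 5 higher and 7 lower in heterozygous cTEC (median -0.05), and 12 higher and 3 lower in mTEC (median 0.15). Elk3, an SRF partner, was higher in cTEC (0.84 ± 0.08), while the kinases Rps6ka3 (-0.78 ± 0.05), Map2k1 (-0.68 ± 0.07) and Map2k2 (-0.45 ± 0.06) were lower. Map2k1, which encodes MEK1, and Rps6ka3, which encodes the kinase RSK2, were also the 2 genes of the list called in the deletion, both lower (-0.73 ± 0.13 and -0.58 ± 0.13, edgeR adjusted p = 0.0228 and 0.0452). With the replicate block both were called lower again, and Mkl1 was called higher (0.31).

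Feedback inhibitors of this signalling had 8 higher and 2 lower of 14 in heterozygous cTEC (median 0.24), led by Dusp1 (2.88 ± 0.29), Spry2 (0.67 ± 0.07) and Dusp8 (2.67 ± 0.30). In mTEC 3 were higher and 4 lower, with Dusp1 higher (2.15 ± 0.32) and Dusp4 (-0.55), Spry4 (-1.41) and Dusp2 (-1.17) lower. In the deletion none of the 14 passed, and with the replicate block Dusp1 (0.86) and Dusp10 (0.43) were called higher and Dusp4 (-0.80) and Dusp16 (-0.44) lower. For ligands of the EGF receptor, in heterozygous cTEC 4 of 7 were higher and 0 lower, among them Hbegf (1.29 ± 0.28), and in heterozygous mTEC 0 were higher and 6 lower, among them Hbegf (-1.29 ± 0.22), Areg (-2.96 ± 0.29) and Epgn (-2.95 ± 0.30). The interaction was called lower for 4 of the 7 and higher for 0. Macrophage and dendritic markers were lower in heterozygous mTEC too (8 of 9), and their part in the ligands' values was not tested.

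Textbook AP-1 targets did not follow the factors as a list. In heterozygous cTEC 3 of 14 were higher and 6 lower (median -0.24), and in mTEC 3 were higher and 9 lower (median -1.07). Ccnd1, which encodes cyclin D1, was higher in both (1.19 ± 0.18 and 1.15 ± 0.12), and Hmox1, heme oxygenase, lower in both (-0.99 ± 0.09 and -1.63 ± 0.09). Mmp9, a gelatinase, was lower in cTEC (-1.11 ± 0.09) and higher in mTEC (0.59 ± 0.11). Spp1, osteopontin, was lower in mTEC (-3.19 ± 0.16). Macrophage and dendritic markers were lower there too, and their part in the Spp1 value was not tested. In the deletion none of 10 tested passed, and with the replicate block Mt2 was called higher (0.64) and Mmp9 (-0.92) and Cd44 (-0.30) lower.

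**Figure D5:**
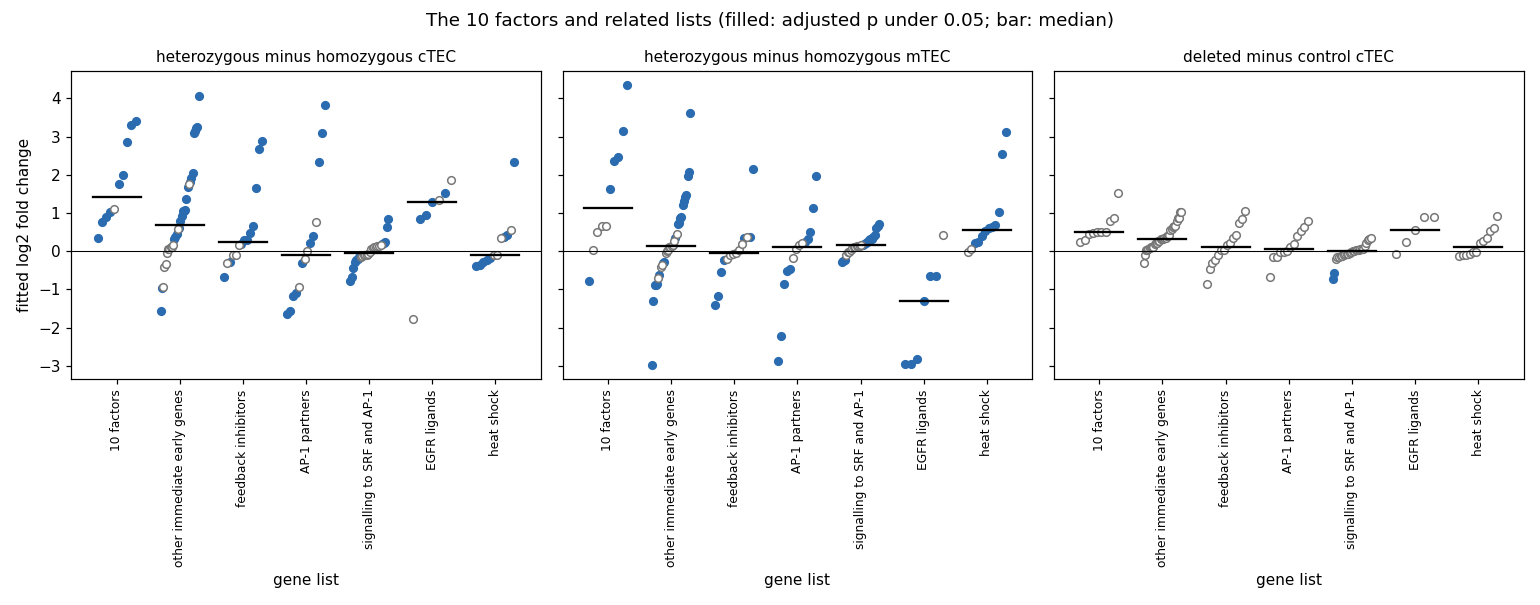
Each point is a gene's fitted log2 fold change, filled where the adjusted p was under 0.05, with bars at the medians, for the 10 factors and 6 related lists in the 3 comparisons. The factors' median is 1.43 for heterozygous minus homozygous cTEC, 1.14 for the same difference in mTEC and 0.50 in the deletion, where only Map2k1 and Rps6ka3 are filled.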

How the data were processed

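Polyadenylated RNA was read as raw counts per gene symbol, in 1 table deposited by the authors with no normalization. Per the submitters' processing notes, TopHat2 2.0.10, Bowtie2 2.2.3, featureCounts and other tools were used with mm10 and GRCm38. For the role of each, for the annotation and for strand, nothing is given in the sources used here, so reads of overlapping antisense genes may be included. Chromatin samples were left out, as the rule for the members takes the counts table only.

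Tests were run with edgeR 4.0.16 (R 4.3.3, limma 3.58.1) by the two-sided quasi-likelihood test with TMM factors, filterByExpr (at least 10 counts, total at least 15) and Benjamini-Hochberg adjustment over all genes tested, at 0.05. The 10 transgenic libraries shared 1 fit with 4 groups, and the 10 deletion libraries had their own, unpaired. SE is the absolute log2 fold change divided by the square root of F. CPM uses raw totals, and fold changes a prior count of 0.125. The fits were tested on simulated data. Depth was about equal between libraries, so genes with few counts limit the precision.

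Members and lists were chosen with earlier results of these data known. Named from each list were up to 3 called genes of smallest p per comparison and direction, any AP-1 or EGR partner, Foxn1, and the 5 genes most like Fos and Egr1. Hspa1a, Psmb11, Enpep, Epcam and Aire are given as checks, and Hspa1a was chosen after its values were seen. Alternatives were other scalings, no filter, DESeq2 1.42.0, limma-voom, leaving out each library, a fit of only the groups compared and a replicate block. Using raw totals without factors, and the blocked fit without each number, were added after seeing the data.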

Additional observations from a re-analysis of the deposited data

Results flagged for a closer look

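For 2 of the 10 factors the dose effect differed between the compartments by the test of the difference itself, both called lower. Of all genes tested 17.2% were called lower and 25.2% higher, so 2 of 10 is near the share over all genes. Fosl2 had an interaction of -1.121 log2 (mTEC minus cTEC, edgeR adjusted p = 6.51e-05), since it was higher in heterozygous cTEC and lower in heterozygous mTEC. Jund had an interaction of -0.7297 (edgeR adjusted p = 0.0171), with a difference in cTEC and none detectable in mTEC. The Jund call was lost with no filter (edgeR adjusted p = 0.0620). Dixon's test was run on each of the 10 factors in control and in deleted cTEC, the groups of 5 libraries, which makes 20 tests. No library stood apart in these, and the transgenic groups were not tested.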

How the results depend on the processing

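The direction of the called dose differences of Fos, Fosb, Jun, Egr1 and Egr2 was the same under every alternative run. The number of factors called lower in the interaction was 1 with no filter, in place of 2. In the deletion, genes called numbered 300 by edgeR, 1108 by DESeq2, 104 by limma-voom and 1220 with the replicate block, and 27 to 920 on leaving out 1 library. Members called on leaving out 1 library numbered 0 to 2 higher and 1 to 3 lower in the interaction, 3 to 5 lower in each subset comparison and 0 in the deletion.

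The pairing of control and deleted libraries by number could be read either way. Libraries were to count as paired if every same-number correlation of deviations from the group means was over 0.1. A first check, over 10806 genes with a mean log2(CPM + 1) above 3, gave 0.64, 0.75, 0.14, 0.45 and 0.50 for numbers 1 to 5, which meets that rule. A second, over all 15224 genes tested, gave 0.63, 0.76, 0.095, 0.40 and 0.48, which does not. The choice between these gene filters was made with the blocked calls already known, so the unpaired result is not a blind choice. In the check over all genes tested, libraries of different numbers correlated at -0.65 to 0.30. Numbers 1, 2, 4 and 5 each correlated best with their own number in both groups. Deleted library 3 correlated better with control libraries 1 (0.19) and 4 (0.13) than with control library 3. With the replicate block 5 factors were called higher in the deletion, beside 2.61% of all genes tested. Without it 0 were, beside 0.282%. In the dose comparisons same-number correlations were 0.05 to 0.10 in cTEC and 0.14 in mTEC. The block there gave 8 higher in cTEC, where Fosl2 was not called (0.35, adjusted p = 0.0625), and 7 higher and 1 lower in mTEC, where Junb and Egr3 were gained. Over all genes the block called 8071 in either direction in cTEC and 11981 in mTEC.

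Differences not called by edgeR changed sign as follows. Jund by dose in mTEC was -0.097 with relative log expression factors, -0.048 with upper quartile factors, -0.018 with no filter and -0.097 by DESeq2. Egr2 between heterozygous subsets was 0.027 with upper quartile factors, 0.15 by limma-voom and 0.0045 without factors, and the interaction of Egr3 was 0.10 by limma-voom. On leaving out 1 library, Jund by dose in mTEC ran from -0.094 to 0.18 and Egr3 by dose in cTEC from -0.056 (without heterozygous library 1) to 1.60. Likewise Egr2 between heterozygous subsets ran from -0.36 to 0.66 and Fosl1 there from -0.20 to 0.45, and the interaction ran from -0.28 to 0.69 for Fos and from -0.96 to 0.70 for Egr3. The cause was not tested. Egr2 in the interaction was called with relative log expression (-1.91), upper quartile (-1.92) and no factors (-1.93). In the interaction Jun was also called without heterozygous cTEC library 1 (1.00) or homozygous cTEC library 3 (0.89), and Egr1 without the latter (0.61). With no filter the calls of Fosl1 (adjusted p = 0.0688) and Fosl2 (0.0609) by dose in cTEC, of Egr2 by dose in mTEC (0.0658) and between homozygous subsets (0.0549), of Junb there (0.0612) and of Jund in the interaction (0.0620) were lost. DESeq2 did not call Egr2 by dose in mTEC (0.0747) or Junb between homozygous subsets (0.0983). Without factors the median of all genes moved to 0.11 in the cTEC dose comparison, with 5931 genes higher and 2859 lower, and with upper quartile factors to 0.28 in the homozygous subset comparison. Egr3 and Egr4 had few counts in transgenic cTEC, which limits their values there.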
